A study of Mus musculus with 3 samples.

Results

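The calcium cycling genes of cardiomyocytes were described here as 10 genes: Cacna1c, Slc8a1, Ryr2, Trdn, Casq2, Casq1, Hrc, Calr, Atp2a2 and Pln. They were taken by name: every gene probe whose gene name, in at least 1 of the 3 scanner files, equalled one of these symbols was counted as a member. This gave 27 probes of 60 bases among 41174 gene probes, and all 10 genes among 27617 names on the array had at least 1 probe. Of the 27 probes, 25 were well above background in both channels on all 3 arrays and were tested. The other 2, Slc8a1 A_52_P244931 and Atp2a2 A_52_P1156808, were not well above background on all arrays in either channel, and no fold is given for them.

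The arrays were two-colour Agilent whole-mouse-genome arrays of hearts from C57BL/6 mouse embryos at embryonic day 15.5. On each array, RNA pooled from 2 Lrrc10-/- hearts was labelled with Cy5 and RNA pooled from 2 wild-type (Lrrc10+/+) littermate hearts with Cy3, and the 3 arrays are the 3 biological replicates. The product of Lrrc10 is a cardiac protein with leucine-rich repeats, and the comparison asked which transcripts differ in its absence before birth. The Cy3 labels also hold an entry for an adult age beside the embryonic one, and the embryonic age was taken. The hearts were whole and each pool mixed both of its animals, so fewer cells of a type and less RNA per cell cannot be told apart. Cy5 marked the same genotype each time, so dye and genotype cannot be told apart either.

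In heart muscle cells, an action potential opens L-type calcium channels in the surface membrane, and the entering calcium opens ryanodine receptors in the sarcoplasmic reticulum, the internal calcium store. Calcium released from the store makes the myofilaments contract. Relaxation follows when a calcium pump, restrained by phospholamban, returns calcium to the store and the sodium-calcium exchanger carries the rest out of the cell. In the embryonic heart the store is still immature and entry across the surface membrane is thought to carry more of the beat.

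Lrrc10 was measured first, as a check of the labels. On replicates 1, 2 and 3 its Cy3 processed signal was 281, 237 and 200, and its Cy5 processed signal 6294, 8521 and 12637. The channel labelled Lrrc10-/- was the brighter on every array. The mean log2 ratio of Cy5 over Cy3 was 4.41 ± 0.40 (SD, n = 3; limma adjusted p = 0.000387), which goes against the label. Whether the probe lies inside the deleted part was not examined. Directions that follow are therefore named by dye, Cy5 (labelled Lrrc10-/-) over Cy3 (labelled wild type), and all of them swap if the labels were exchanged.

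The labelled tissue was checked against 18 cardiomyocyte markers, and 18 of them were well above background in both channels on all arrays. At least 1 array saturated both channels for 11 of the 18, which leaves their ratios uninformative. Liver markers set replicate 2 apart: all 6 tested were lower in Cy5 there (median log2 ratio -2.35), against list medians of 0.62 on replicate 1 and 0.13 on replicate 3. Replicate 1 was read with other software and another scanner than replicates 2 and 3. The share of gene spots well above background ran from 63.9% to 93.2% over the 6 channels and was lowest on replicate 3 in both. Precision was limited by the number of arrays.

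Several of the probes described below are shown as examples. Sequences are given 5′ to 3′ as the files hold them, with the files' mm9 positions. The first pair reads the same stretch of Slc8a1 (capitals mark the 52 bases they share), on chromosome 17, minus strand, at chr17:81841124-81844261 for A_52_P313284, an interval longer than the probe, and chr17:81844210-81844269 for A_52_P313285. The third is a further Slc8a1 probe, at chr17:81807555-81807614, and the fourth the Atp2a2 probe that was lower in Cy5 on all 3 arrays, at chr5:122910660-122910719 on the minus strand. No mm9 gene model was used here, so exons are not annotated.
Slc8a1 A_52_P313284: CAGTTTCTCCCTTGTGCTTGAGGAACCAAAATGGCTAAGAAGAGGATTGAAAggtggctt
Slc8a1 A_52_P313285: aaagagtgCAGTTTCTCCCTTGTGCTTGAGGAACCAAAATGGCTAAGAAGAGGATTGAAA
Slc8a1 A_52_P562704: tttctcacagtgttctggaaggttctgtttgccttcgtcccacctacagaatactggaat
Atp2a2 A_52_P168097: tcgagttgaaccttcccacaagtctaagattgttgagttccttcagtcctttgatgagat

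No calcium cycling probe passed the test. Of the 25 tested, 0 were called higher and 0 lower in Cy5 (limma, Benjamini-Hochberg over all 28328 tested probes, adjusted p under 0.05), where 1.39% of all tested probes were called higher and 0.00353% lower. The lowest adjusted p among them was 0.192. At an unadjusted p under 0.05 there was 1 member probe higher (Trdn A_51_P249608) and 2 lower (Cacna1c A_51_P376996 and Atp2a2 A_52_P168097), beside 9.07% and 4.26% of all tested probes. The methods' t-test gave 0 calls over the whole array after adjustment and 1 member probe at an unadjusted p under 0.05, a level that 9.29% of all tested probes reached.

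Mean log2 ratios of the 25 probes ran from -0.42 to 0.34 with a median of 0.01, the same to 2 decimals as the 0.01 of all tested probes. The limma 95% interval lay within a 1.5-fold difference in either direction for 19 probes and within a 2-fold difference for 24. The exception to the wider bound was Slc8a1 A_52_P876218. With 1 probe per gene, the one of highest mean intensity, 6 of the 10 genes lay above 0 and the median log2 ratio was 0.08, against 0.03 for all tested genes. The median of the 10 genes was 0.07, 0.17 and 0.20 on replicates 1, 2 and 3. Over the 25 probes the median was 0.06, 0.16 and 0.01, so the value on replicate 3 depended on which probes were taken. The probe that stood for Atp2a2 had saturated spots. With saturated spots left out, the median of the 10 genes was 0.05, with 5 of them above 0, against 0.03 for all tested genes.

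**Figure D1:**
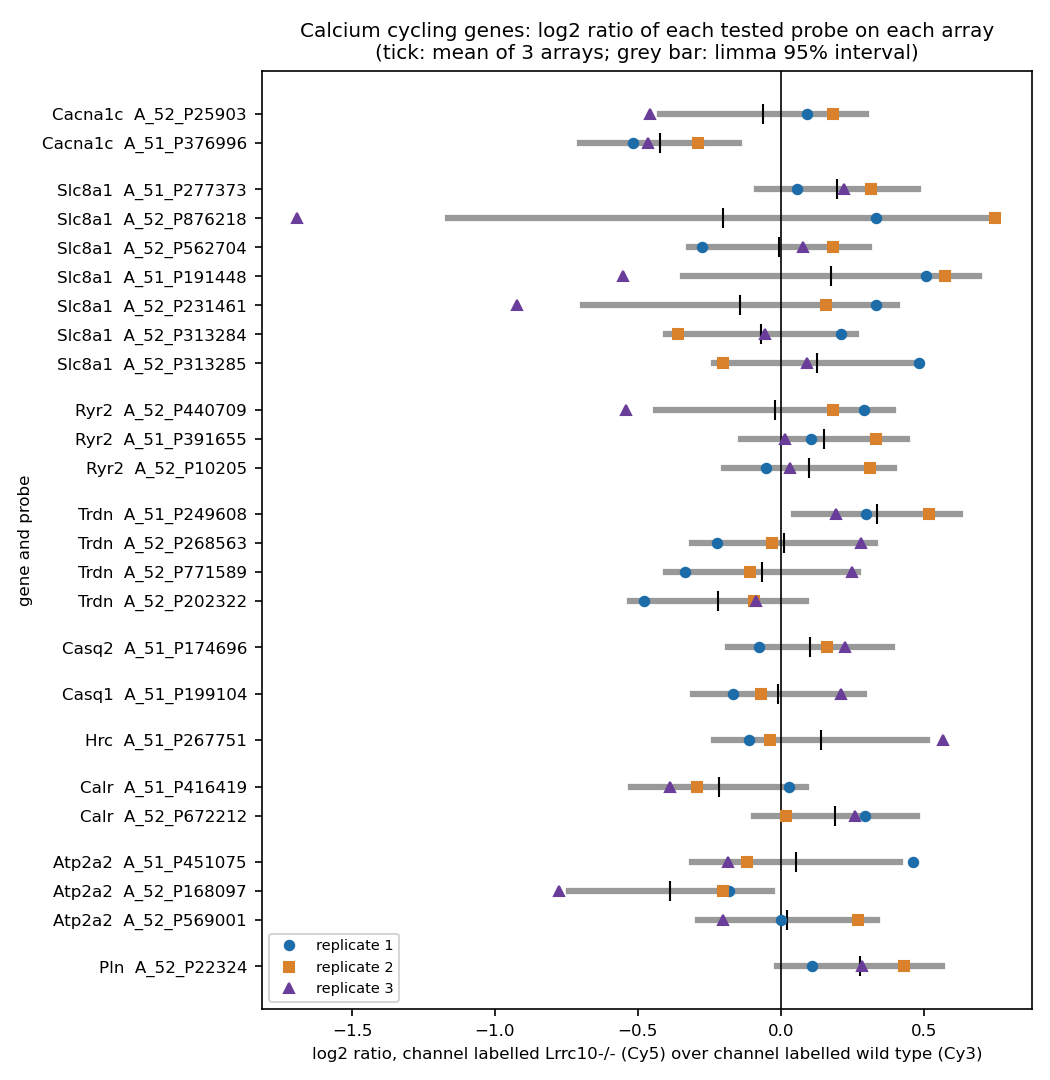
Log2 ratio of Cy5 (labelled Lrrc10-/-) over Cy3 (labelled wild type) for each of the 25 tested probes, by gene; points are the 3 arrays, the tick their mean and the grey bar the limma 95% interval. For 17 of the 25 probes the arrays lie on both sides of 0, and replicate 3 of Slc8a1 A_52_P876218 lies farthest out, at -1.69.

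After loess, 5 of the 25 probes were higher in Cy5 on all 3 arrays and 3 were lower on all 3. The shares over all tested probes were 19.1% and 17.4%. The 5 were Pln A_52_P22324, Trdn A_51_P249608, Calr A_52_P672212, Ryr2 A_51_P391655 and Slc8a1 A_51_P277373. The 3 were Cacna1c A_51_P376996, Atp2a2 A_52_P168097 and Trdn A_52_P202322. By the scanner software's own log2 ratios the 3 stayed lower on every array, while each of the 5 had an array with Cy5 lower. The log2 ratio there was -0.19 (Pln), -0.04 (Trdn), -0.24 (Ryr2) and -0.06 (Slc8a1) on replicate 1 and -0.17 (Calr) on replicate 2.

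Calcium entry is represented by Cacna1c, the pore-forming subunit of the cardiac L-type channel, with 2 probes 301 bases apart in the genome. For A_51_P376996 the processed signal was 1262, 733 and 814 in Cy5 on replicates 1, 2 and 3 and 1552, 823 and 1219 in Cy3. Cy5 was the lower channel on each array. Its log2 ratio was -0.52, -0.29 and -0.47, a mean of -0.42 ± 0.12 (SD, n = 3), and its limma adjusted p of 0.192 was the lowest of the members. The neighbouring A_52_P25903 gave 0.09, 0.18 and -0.46, so both probes were lower in Cy5 on replicate 3 but only the first was lower on replicates 1 and 2. The mean for the neighbour was -0.06 ± 0.35 (SD, n = 3; limma adjusted p = 0.900).

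Extrusion is represented by Slc8a1, the cardiac sodium-calcium exchanger NCX1, with 8 probes, 7 of them tested. The brightest, A_51_P277373, had processed signals of 10350, 9061 and 11925 in Cy5 and 10815, 7798 and 11043 in Cy3. The channels overlapped. The mean log2 ratio was 0.20 ± 0.13 (SD, n = 3; limma adjusted p = 0.523). The probe A_52_P562704, shown above, gave -0.28, 0.18 and 0.08, a mean of -0.005 ± 0.24 (SD, n = 3).

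The other Slc8a1 probes separated the arrays. A_52_P876218, A_51_P191448 and A_52_P231461, the 3 tested probes that the files place farthest downstream in the gene, were higher in Cy5 on replicates 1 and 2 and lower on replicate 3. On replicates 1, 2 and 3 the processed signals of A_52_P876218 were 3320, 4289 and 2081 in Cy5, against 2382, 2484 and 7210 in Cy3. On replicate 3 Cy3 was thus brighter and Cy5 dimmer than on either other array. Its log2 ratio was 0.33, 0.75 and -1.69, a mean of -0.20 ± 1.31 (SD, n = 3; limma adjusted p = 0.872). Only 10 of the 28328 tested probes had a lower ratio on replicate 3, and 0.134% of tested probes had an SD as large.

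A_52_P231461 gave 0.33, 0.16 and -0.92 and A_51_P191448 gave 0.51, 0.57 and -0.55, with SDs of 0.68 and 0.63. An SD as large was seen for 1.95% and 2.66% of all tested probes. On the same replicate 3, A_51_P277373, which the files place 1313 bases upstream of A_52_P231461, gave 0.22. The ratio of Slc8a1 on replicate 3 therefore depended on the probe, and the spread between its probes was 1.91 there against 0.78 and 1.11 on replicates 1 and 2. The files align only 19 of the 60 bases of A_52_P876218 and 9 of A_51_P191448, so the place of these probes is less sure than that of the others. Without replicate 3, both were called higher in Cy5, at 0.54 each (limma adjusted p = 0.0414 and 0.0314), while with all 3 arrays neither passed. Without that array 5.48% of all tested probes were called higher. Replicate 3 was the array at odds with replicates 1 and 2 for both probes, so nothing is read from these calls. A cause was not tested.

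**Figure D2:**
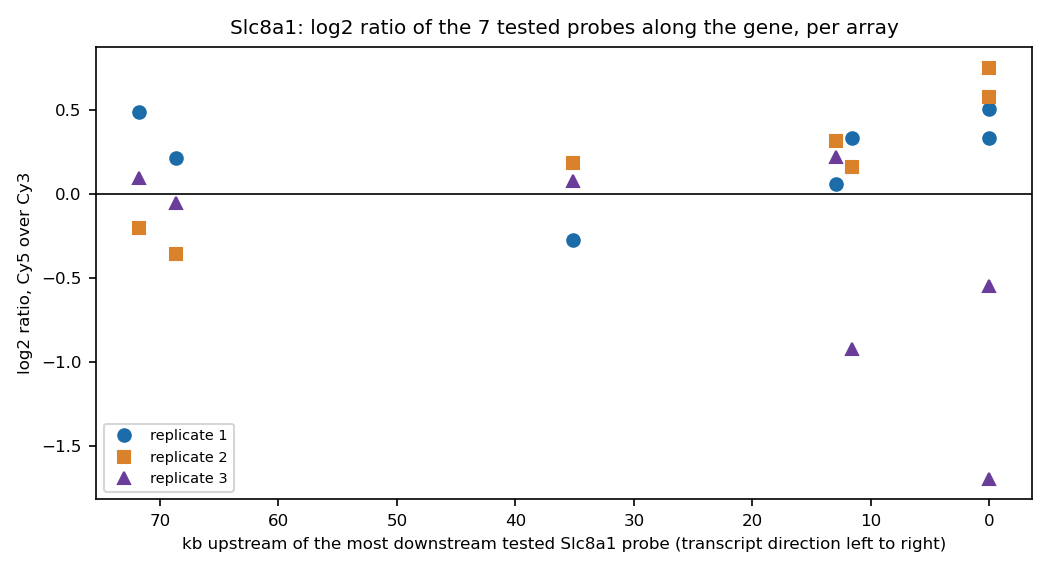
Log2 ratio of Cy5 over Cy3 for the 7 tested Slc8a1 probes on each array, against distance in kb upstream of the most downstream tested probe. At 0 and 11.6 kb replicate 3 lies at -1.69, -0.55 and -0.92 while replicates 1 and 2 lie above 0, and at 12.9 kb and beyond replicate 3 lies between -0.06 and 0.22. The probes at 0 kb are placed by only 19 and 9 aligned bases, so their place is less sure.

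The overlapping Slc8a1 pair shows how closely nearly identical probes followed each other. A_52_P313284 gave 0.21, -0.36 and -0.06 and A_52_P313285 gave 0.48, -0.20 and 0.09 on replicates 1, 2 and 3. After loess the second lay above the first by 0.27, 0.16 and 0.15, and both ordered the arrays alike. Their means of -0.07 and 0.13 on that scale had limma adjusted p-values of 0.876 and 0.768. By the software's own log2 ratios the second lay below the first on each array. It gave 0.22, -0.50 and -0.02 there, against 0.24, -0.47 and 0.04. Their gene names differ between the files: the first is named Slc8a1 on replicates 1 and 2 and the second on replicate 3.

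Release from the store runs through Ryr2, the cardiac ryanodine receptor, with 3 probes. For the brightest, A_52_P440709, which lies farthest downstream of the 3, the processed signal was 3883, 3625 and 1909 in Cy5, against 4086, 3813 and 3278 in Cy3. The widest gap between the channels was on replicate 3, where Cy5 was lower. Its log2 ratio was 0.29, 0.18 and -0.54, a mean of -0.02 ± 0.45 (SD, n = 3; limma adjusted p = 0.971). A_51_P391655 gave 0.11, 0.33 and 0.01 and A_52_P10205 gave -0.05, 0.31 and 0.03. The replicate 3 value of the first was thus not repeated by the others. The limma adjusted p-values of those probes were 0.636 and 0.783. Both were dim on replicate 3, with processed signals of 80 and 149 in Cy5 and 77 and 99 in Cy3. By the software's own log2 ratios they gave 0.05 and 0.59 on replicate 3, against -0.78 for A_52_P440709.

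Trdn encodes triadin, a membrane protein of the store that tethers calsequestrin to the ryanodine receptor, and had 4 probes. A_51_P249608 had processed signals of 17918, 24753 and 26685 in Cy5 and 18474, 20194 and 26647 in Cy3. The channels lay close together on replicates 1 and 3, and Cy5 was the higher on replicate 2. After loess its log2 ratio was 0.30, 0.52 and 0.19, a mean of 0.34 ± 0.17 (SD, n = 3), the highest of the members, with a limma adjusted p of 0.306. On the software's own scale the log2 ratios of this probe were -0.04, 0.29 and 0.002. The means of the other Trdn probes were 0.01 for A_52_P268563, -0.07 for A_52_P771589 and -0.22 for A_52_P202322, none past the threshold. After loess A_52_P202322 gave -0.48, -0.09 and -0.09, with the lowest ratio on replicate 1. The software's own log2 ratios for A_52_P202322 were -0.44, -0.03 and -0.55, with the lowest on replicate 3. Which array differed most thus depended on the scale, and the scales differ in background correction as well as in normalization.

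Calcium in the store is held by buffering proteins, of which the cardiac calsequestrin Casq2 is the main one in heart muscle. Casq2 had processed signals of 24759, 27150 and 30422 in Cy5 and 27789, 27006 and 29736 in Cy3. The channels overlapped, and the mean log2 ratio was 0.10 ± 0.16 (SD, n = 3; limma adjusted p = 0.758). Hrc, the histidine-rich calcium-binding protein of the store, had 9980, 13252 and 18320 in Cy5 and 9541, 11850 and 12693 in Cy3. The wider gap on replicate 3 is also seen in its log2 ratios of -0.11, -0.04 and 0.57, whose mean was 0.14 ± 0.37 (SD, n = 3; limma adjusted p = 0.749).

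Casq1, the calsequestrin of fast skeletal muscle, had processed signals of 1300, 606 and 976 in Cy5 and 1701, 729 and 822 in Cy3. Cy5 was the lower channel on replicates 1 and 2 and the higher on replicate 3. The mean log2 ratio was -0.01 ± 0.20 (SD, n = 3; limma adjusted p = 0.984). Of 22 skeletal muscle markers, 12 were well above background in both channels on all arrays and 1, Myf5, on none in either channel. The median log2 ratio of the 18 tested was 0.14, -0.11 and 0.03 on replicates 1, 2 and 3, where Casq1 gave -0.17, -0.07 and 0.21. The summed processed signal of the 21 markers other than Myh8, whose probe was saturated, was in Cy5 1.02, 0.794 and 0.966 times that in Cy3. Most of that sum came from Myl1 and Tnni2, whose mean log2 ratios were -0.05 and -0.65. The part of skeletal muscle cells in the Casq1 value was not tested.

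Calr encodes calreticulin, the calcium-binding chaperone of the endoplasmic reticulum, which is abundant in the embryonic heart. Its 2 probes went apart. A_51_P416419, the downstream one, had processed signals of 7875, 5657 and 8686 in Cy5 and 8730, 7728 and 12413 in Cy3, with Cy5 the lower on each array on this scale. After loess its log2 ratio was 0.03, -0.29 and -0.39, with the sign of replicate 1 unlike that of the processed signals, and its mean was -0.22 ± 0.22 (SD, n = 3; limma adjusted p = 0.522). A_52_P672212, which lies 2337 bases upstream, gave 0.30, 0.02 and 0.26, a mean of 0.19 ± 0.15 (SD, n = 3; limma adjusted p = 0.546). The probes differed most on replicate 3, by 0.65.

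Uptake into the store is the work of Atp2a2, the calcium pump SERCA2. Its brightest probe, A_51_P451075, had processed signals of 67325, 37051 and 60390 in Cy5 and 52107, 44015 and 79337 in Cy3. The spot was saturated in both channels on replicate 2 and in Cy3 on replicate 3, so a ratio from unsaturated signals exists for replicate 1 alone, at 0.46. With the saturated spots kept the mean was 0.05 ± 0.36 (SD, n = 3; limma adjusted p = 0.917).

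The Atp2a2 probe A_52_P168097, shown above, was not saturated, with processed signals of 6292, 2948 and 4613 in Cy5 and 7683, 3633 and 8381 in Cy3. Cy5 was the lower channel on each array and the gap was widest on replicate 3. The log2 ratio was -0.18, -0.20 and -0.78, a mean of -0.39 ± 0.34 (SD, n = 3; limma 95% interval -0.74 to -0.03, adjusted p = 0.340). A_52_P569001, which the files assign to another transcript variant, gave -0.0002, 0.27 and -0.20, a mean of 0.02 (limma adjusted p = 0.960). All 3 tested Atp2a2 probes were lower in Cy5 on replicate 3, and they differed in sign on replicates 1 and 2.

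Pln encodes phospholamban, the inhibitor of that pump, and had 1 probe. The processed signal was 30636, 33929 and 50601 in Cy5, against 34960, 29191 and 48779 in Cy3. Cy5 was lower on replicate 1 and higher on the others on this scale. After loess the log2 ratio was 0.11, 0.43 and 0.29, a mean of 0.28 ± 0.16 (SD, n = 3; limma 95% interval -0.01 to 0.56, adjusted p = 0.394). On the software's scale it was -0.19, 0.22 and 0.05, so replicate 1 changed sign with the scale.

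**Figure D3:**
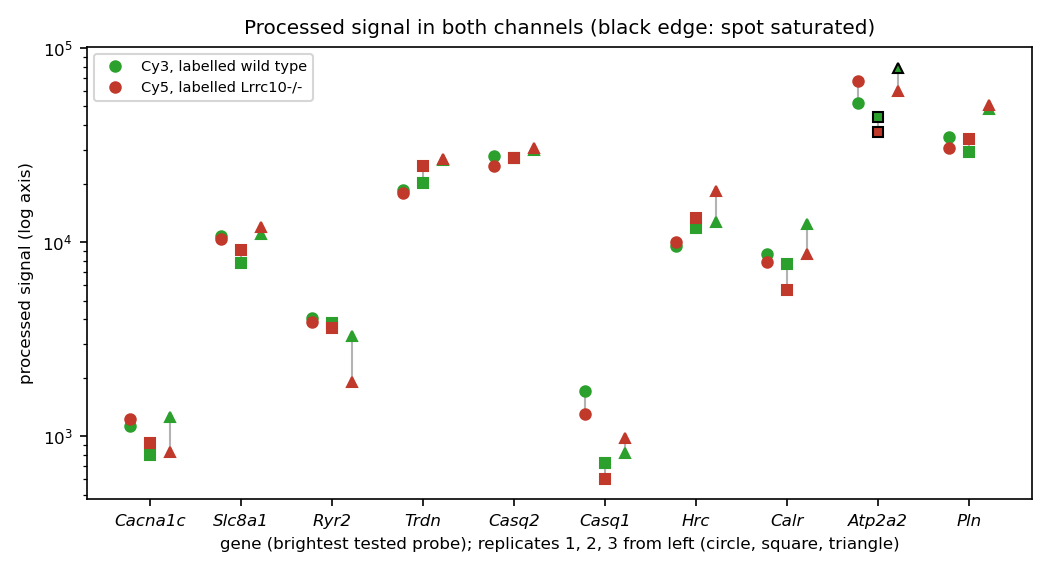
Processed signal (log axis) of the brightest tested probe of each of the 10 genes in Cy5 and Cy3 on replicates 1, 2 and 3; black edges mark saturated spots, and levels of different probes are not comparable. The channels lie close together for Casq2 and, on replicates 1 and 3, for Trdn, and for Ryr2 the gap is widest on replicate 3 (1909 in Cy5 and 3278 in Cy3).

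Of the 6 genes with more than 1 tested probe, the most downstream tested probe was the lowest of its gene in 1, 3 and 3 on replicates 1, 2 and 3, which was looked for after the values were seen. Calr was counted on all 3 arrays, Ryr2 on replicates 2 and 3, Trdn on replicate 2 and Slc8a1 on replicate 3. In Slc8a1, A_52_P876218 and A_51_P191448 share the most downstream place. The genes had 2 to 7 tested probes each. How often this is met over all genes was not counted, so nothing is read from these counts. On the software's own ratios, member probes that were at least 1.2-fold lower in Cy5 with a software p under 0.05 numbered 1, 3 and 9 on replicates 1, 2 and 3 of the 25 probes, beside 9.48%, 3.05% and 22.4% of all tested probes. Those at least 1.2-fold higher numbered 1, 2 and 2, beside 11.2%, 9.64% and 19.2%. The selection of the kind the study describes, 1.2-fold in 1 direction with a software p under 0.05 on every array and at least 20 of processed signal in both channels, was passed by 0 member probes in either direction, against 2.18% of the probes with that signal higher and 0.131% lower. Without the criterion on p, 1 member probe passed it, the Atp2a2 probe A_52_P168097, as lower, where 3.55% of all probes with that signal passed as higher and 1.51% as lower.

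The other genes of calcium handling were read from a list of 87 (further channels, receptors, pumps, exchangers, buffers and regulators), of which 84 were tested with 1 probe each. 2 passed the test as higher in Cy5 and 0 as lower, beside 1.81% and 0.00527% of all tested genes. Before adjustment, a p under 0.05 was reached by 6 genes on each side (12 of the 84), beside 14.9% of all tested genes. The median log2 ratio of the list was -0.02, against 0.08 for the 10 members and 0.03 for all tested genes. Both genes that passed encode relatives of members.

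Ryr3, a ryanodine receptor of brain and other tissues, had processed signals of 1371, 2184 and 9759 in Cy5 and 711, 589 and 2876 in Cy3 for A_51_P519354. Cy5 was the higher channel on each array, and the mean log2 ratio was 1.36 ± 0.55 (SD, n = 3; limma adjusted p = 0.0268). The 4 further tested Ryr3 probes had means from -0.17 to 0.22, and 0 of them passed. Cacna1s, the L-type channel subunit of skeletal muscle, had 766, 367 and 1098 in Cy5 and 366, 240 and 311 in Cy3 for A_51_P103541. Cy5 was again higher on each array, with a mean log2 ratio of 1.06 ± 0.27 (SD, n = 3; limma adjusted p = 0.0213). Its other probe was not well above background on all arrays and was not tested. Both calls were lost without replicate 1 and without replicate 2, when 0 genes of the list passed as higher.

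Among genes that did not pass, the lowest p on the higher side was that of Ppp3cb, a catalytic subunit of calcineurin, at 0.46 ± 0.18 (SD, n = 3; limma adjusted p = 0.185) for A_52_P457382. Its other tested probes averaged 0.31 and -0.12. Next was Sln, named after its values were seen, which encodes sarcolipin, an inhibitor of the pump found mainly in the atria of the heart. It gave 1.28, 1.16 and 0.07, a mean of 0.84 ± 0.66 (SD, n = 3; limma adjusted p = 0.187), with replicates 1 and 2 far above replicate 3. On the lower side the genes of lowest p were Pdia3, Ppp3ca and Prkar2a. Pdia3, a disulfide isomerase that works with calreticulin, gave -0.38, -0.49 and -0.58 (limma adjusted p = 0.142). Ppp3ca, the other main catalytic subunit of calcineurin, gave -0.46, -0.37 and -0.37 (limma adjusted p = 0.199). Prkar2a, a regulatory subunit of protein kinase A, averaged -0.35 ± 0.08 (SD, n = 3; limma adjusted p = 0.259) for A_51_P409893. The other tested Prkar2a probes averaged -0.16 and -0.12.

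**Figure D4:**
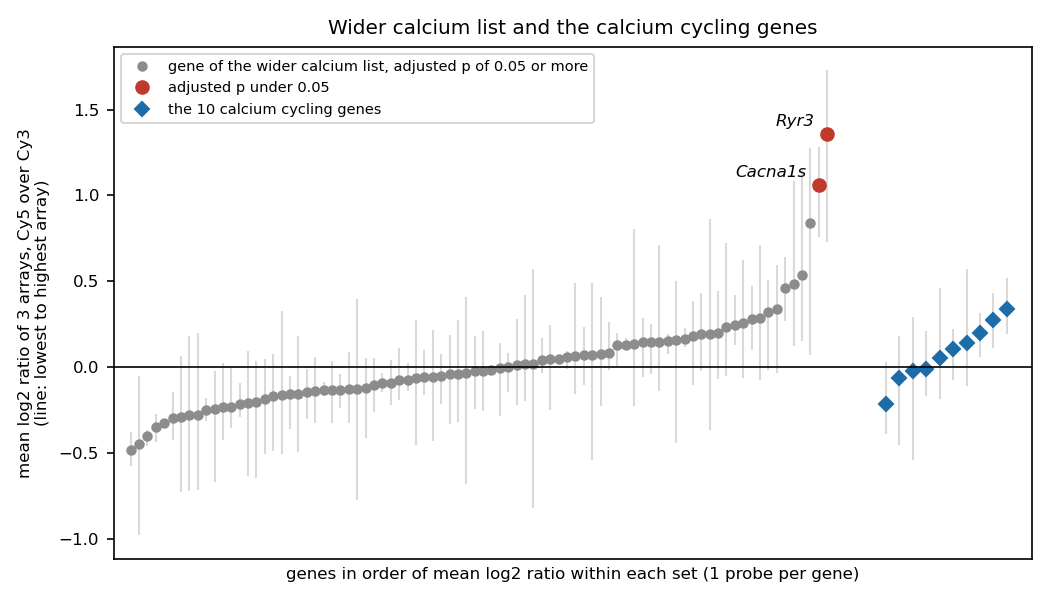
Mean log2 ratio (Cy5 over Cy3, 3 arrays, 1 probe per gene) of the 84 tested genes of the wider calcium list and of the 10 calcium cycling genes, each in order of size; grey lines run from the lowest to the highest array. Ryr3 (1.36) and Cacna1s (1.06) are the only genes past the threshold, and the 10 members lie between -0.22 and 0.34.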

How the data were processed

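RNA from 3 pools of Lrrc10-/- and 3 pools of wild-type mouse hearts was measured on 3 two-colour arrays, and each array is 1 replicate of the ratio. The authors deposited scanner files whose spot intensities, per the file headers, came from Agilent Feature Extraction 9.1.3.1 (replicate 1) and 10.7.3.1 (replicates 2 and 3), while the submitters' processing notes name version 9.5. The deposited log10 ratios and their p-values are that software's, within 1 array, and the series table repeats the log10 ratios with a largest difference of 0. The processed intensities had been background-subtracted and dye-normalized by the authors' software.

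Mean signals were corrected with normexp on the median local background (offset 50), normalized by loess within each array (control spots at weight 0), and averaged per probe, without control and non-uniform spots, in limma 3.58.1 (R 4.3.3). Probes that the software flagged as well above background throughout all 3 arrays in at least 1 channel were tested against 0 with lmFit and eBayes, two-sided, with Benjamini-Hochberg over all 28328. A channel counted as saturated where it was flagged or within 1% of the highest signal of its array. Saturated spots were kept. The fit was tested on simulated data. Names were updated through RefSeq accessions (GRCm38.p6 table; 27030 of 28129 probes with an accession matched), and members were matched on the files' names. Positions are the files' (mm9). Of several probes the brightest tested one stood for a gene.

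The members and lists were chosen with earlier results of these data known. The 10 members are given with every probe. From the wider list, genes past the threshold were named and, up to 3 per direction, those of lowest p. Median log2 ratios of the other marker lists were -0.18 (cardiomyocyte), -0.21 (ventricular), -0.02 (atrial), -0.17 (smooth muscle), 0.03 (endothelial), 0.01 (mesenchyme and fibroblast), 0.03 (epicardial), -0.19 (erythroid), -0.48 (liver) and 0.01 (macrophage), and 0 genes of any of them were called. The first 3 medians fall on probes with saturated spots (Myl4 and Actc1, Myl2 and Myl3, and Myl7), which leaves them uninformative.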

Additional observations from a re-analysis of the deposited data

How the results depend on the processing

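No calcium cycling probe was called under any alternative run on all 3 arrays, and the lowest adjusted p was 0.130 (arrayWeights). Leaving out 1 array gave 0 to 2 calls higher, both Slc8a1 probes without replicate 3, and 0 to 1 probe in each direction in the 1.2-fold selection, which gave 1 lower without the p criterion. The median of the 10 genes was -0.066 with the software's processed signals and with the series table, and -0.019 with median centring. It was 0.0085 with the median over all probes of a gene and 0.048 with saturated spots left out, and ran from 0.11 to 0.15 when an array was left out. That of the wider list was -0.076, -0.076 and -0.068 in the first 3, and -0.056 to 0.010. Its 2 calls became 1 without a filter on dim probes, 0 with the methods' t-test, no background correction, processed signals, scaling between arrays, the series table or a block for software version, and 0 to 4 when an array was left out.

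Over the whole array, 395 probes were called higher and 1 lower. Those called higher were 145 without the dim filter, 1 without background correction or with the version as a block, 0 with the t-test, processed signals, scaling or the series table, and 1 to 1540 when an array was left out. Those called lower were 14 with arrayWeights, 5 without saturated spots, 3 with an intensity trend, 2 with median centring or the limit of 20 on signal, 0 in the rest that moved, and 0 to 248 when an array was left out. Lrrc10 stayed higher, but missed the threshold with the t-test (4.41), scaling (4.58), processed signals and the series table (5.21).

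The sign of 16 of the 25 member probes changed under some alternative, none of them past the threshold with 3 arrays. With processed signals and the series table the means were -0.091 (Atp2a2 A_51_P451075), -0.064 (Atp2a2 A_52_P569001), -0.042 (Casq2), -0.082 (Slc8a1 A_51_P191448), -0.10 (Slc8a1 A_52_P313285) and 0.088 (Trdn A_52_P771589). With median centring they were -0.055 (A_51_P451075), -0.064 (A_52_P569001) and -0.048 (Trdn A_52_P268563). Scaling gave -0.0100 (A_51_P451075), 0.024 (Casq1) and 0.033 (Slc8a1 A_52_P562704), and no background correction -0.0012 (A_52_P569001), 0.012 (Casq1) and 0.00024 (A_52_P562704). With arrayWeights they were 0.037 (Cacna1c A_52_P25903), 0.11 (Ryr2 A_52_P440709), 0.049 (Slc8a1 A_52_P231461), 0.17 (Slc8a1 A_52_P876218) and -0.056 (A_52_P268563). The block gave 0.057 (A_52_P440709), 0.0017 (Slc8a1 A_52_P313284) and -0.048 (A_52_P268563). Leaving out an array gave -0.15 to 0.17 (A_51_P451075), -0.10 to 0.14 (A_52_P569001), -0.18 to 0.14 (A_52_P25903), -0.12 to 0.070 (Casq1), -0.075 to 0.27 (Hrc), -0.010 to 0.17 (Ryr2 A_52_P10205), -0.18 to 0.24 (A_52_P440709), -0.022 to 0.54 (A_51_P191448), -0.38 to 0.25 (A_52_P231461), -0.21 to 0.078 (A_52_P313284), -0.054 to 0.29 (A_52_P313285), -0.10 to 0.13 (A_52_P562704), -0.68 to 0.54 (A_52_P876218), -0.13 to 0.13 (A_52_P268563) and -0.22 to 0.069 (A_52_P771589). The cause was not tested.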
